A study of Homo sapiens with 14 samples.

Results

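The 10 genes described here encode the enzymes and transporters that make, activate, move and remove sialic acid, and they were taken by symbol or NCBI gene number from the 27819 genes shared by the 4 count tables. They are GNE, NANS and NANP (synthesis), CMAS (activation), SLC35A1 and SLC17A5 (transport), NPL (breakdown), NEU1 and NEU3 (removal from glycans) and SIAE (removal of acetyl groups). RNA-seq counts of 14 libraries came from CWR22Rv1, an established human prostate carcinoma line. The cultures received DMSO as vehicle (3 libraries), the sialylation inhibitor P-SiaFNEtoc at 2 μM (3 libraries), or a fucosylation inhibitor, namely SGN-2FF at 100 μM (3 libraries), Fucotrim I at 30 μM (3 libraries) or Fucotrim II at 60 μM (2 libraries). Every treatment lasted 72 h and all came from the same single cell line. Doses differed between the inhibitors, so that values for the 3 fucosylation inhibitors stand side by side without a test between them, and the 4 comparisons with DMSO share the same DMSO libraries.

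Sialic acid ends many glycan chains on the surface of cells. GNE converts UDP-GlcNAc to phosphorylated ManNAc, NANS and NANP turn this into free sialic acid, and CMAS couples sialic acid to CMP in the nucleus. SLC35A1 then carries CMP-sialic acid into the Golgi, where sialyltransferases spend it, while sialidases such as NEU1 and NEU3 take it off again and SLC17A5 returns it from the lysosome to the cytosol.

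The promoter sequences that go with the genes described below are shown first, since none of the other data show what lies upstream of them. RefSeq (GRCh38.p14) gave 12 promoter windows for the 10 genes, with a second start each for GNE and NEU3, and the 250 bases before each start were searched on both strands for CACGTG (the E-box) and CCAAT (also read as ATTGG), 2 motifs that do not overlap each other. Stretches that are annotated as exon are left out here, apart from the 26 bases around the E-box of NPL, and capitals mark the motifs. The windows of CMAS and of the second start of NEU3 are shown because both genes were lower with Fucotrim inhibitors, and neither holds either motif. NEU1 and NPL are shown because they alone among the 10 genes hold CACGTG. It lay in 2 of the 12 windows, and 6.34% of 35116 RefSeq promoters hold it.
CMAS (chr12:22045968-22046217, plus strand): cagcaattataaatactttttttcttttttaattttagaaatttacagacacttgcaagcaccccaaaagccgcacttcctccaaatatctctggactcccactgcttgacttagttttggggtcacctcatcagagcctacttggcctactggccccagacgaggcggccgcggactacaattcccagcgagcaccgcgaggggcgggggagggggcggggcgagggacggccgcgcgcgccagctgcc
NEU3, second start (chr11:74988726-74988924, plus strand): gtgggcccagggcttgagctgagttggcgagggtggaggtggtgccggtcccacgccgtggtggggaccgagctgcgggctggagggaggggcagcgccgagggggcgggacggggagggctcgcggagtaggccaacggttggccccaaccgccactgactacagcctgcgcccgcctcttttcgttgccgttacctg
NEU1 (chr6:31862906-31863071, minus strand): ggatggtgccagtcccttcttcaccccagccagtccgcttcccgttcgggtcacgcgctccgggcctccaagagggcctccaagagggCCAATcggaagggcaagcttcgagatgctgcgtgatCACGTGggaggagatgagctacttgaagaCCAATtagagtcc
NPL, E-box with 10 bases on each side (chr1:182789707-182789732, plus strand): ggcgtggcggCACGTGggcccgagcc
CCAAT lay in 6 of the 12 windows, those of 5 of the 10 genes (GNE, NANS, SLC17A5, NEU1 and the first start of NEU3). Of all promoters, 32.0% hold it. The SIAE window held neither motif, and 91.2% of it is annotated as exon of SPA17 on the opposite strand or of SIAE itself. A match is a run of letters and was not tested as a binding site.

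In the 3 DMSO libraries, 9 of the 10 genes were measured and their levels differed widely once divided by exon length. CMAS stood highest at 75.6 ± 1.84 CPM (counts scaled to a common library size after TMM normalization) per kilobase of exon (SD, n = 3). SLC35A1 (17.3 ± 0.490), NANS (13.3 ± 0.201) and SLC17A5 (11.7 ± 0.606) followed on the same scale, and then NANP (4.53 ± 0.216) and SIAE (2.58 ± 0.0635). The lowest were NEU3 at 1.69 ± 0.107, GNE at 1.54 ± 0.0741 and NPL at 0.602 ± 0.0666 CPM per kilobase. The ranges of NEU3 and GNE, neighbours in this order, overlapped with 1.57 to 1.78 and 1.48 to 1.62, and no other neighbouring pair did. GNE, the enzyme that commits the pathway, was thus read at a lower level per exon base than every later enzyme of synthesis and activation.

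**Figure D1:**
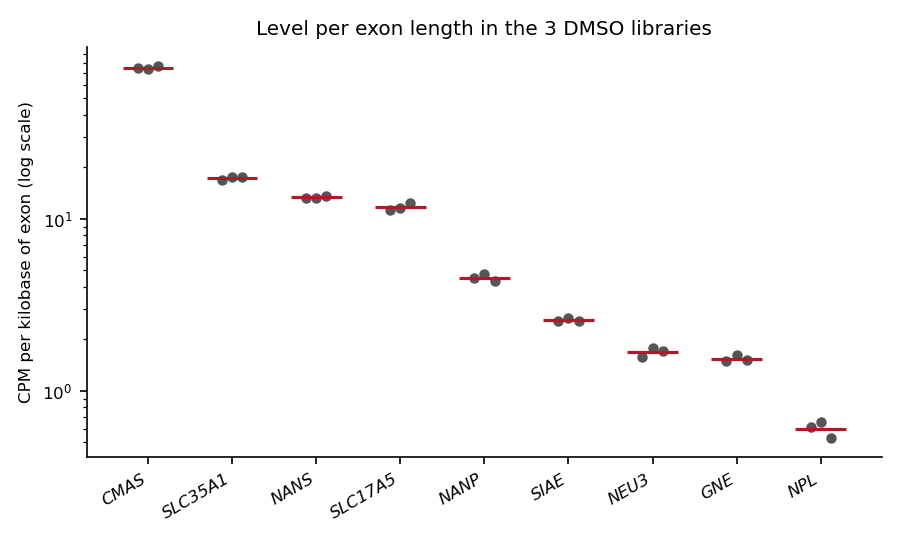
CPM per kilobase of exon (log axis) of the 9 measured sialic acid genes in DMSO, with 1 point per library (n = 3) and a red line at the mean. CMAS lies at 75.6 and NPL at 0.602, and only the points of NEU3 and GNE overlap with those of their neighbour.

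NEU1, the lysosomal sialidase, had no counts in 12 of the 14 libraries, 1 count in a Fucotrim I library and 2 counts in a P-SiaFNEtoc library. A count of 0 allows up to 3 counts, which is 0.150 to 0.239 CPM of these libraries. It was below the filter on low counts and has no fold change. The gene lies on hg38 chromosome 6 from 31857659 to 31862905 (minus strand), and 100% of its 4623 exon windows of 100 bases also occur on 7 alternate contigs of the reference genome, against 0% for each of the other 9 genes. Of the 40 protein-coding genes nearest to it, 20 on each side between 31658298 and 32180793, 30 (75.0%) had at most 3 counts in every library, whereas 22.2% of 19175 protein-coding genes and 26.8% of 953 others on chromosome 6 did. CSNK2B, CLIC1, LSM2 and VARS1, which most cells express, had 23, 3, 0 and 31 counts summed over the 14 libraries. They were chosen after their values were seen. The neighbours with the most counts were NELFE, AGPAT1, DDAH2 and ABHD16A, with 374, 368, 269 and 73 summed in the same way. Whether the authors' index held alternate contigs and how reads with several positions were counted is not given in the sources used here, so the counts of NEU1 cannot be read as absence of its mRNA.

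**Figure D2:**
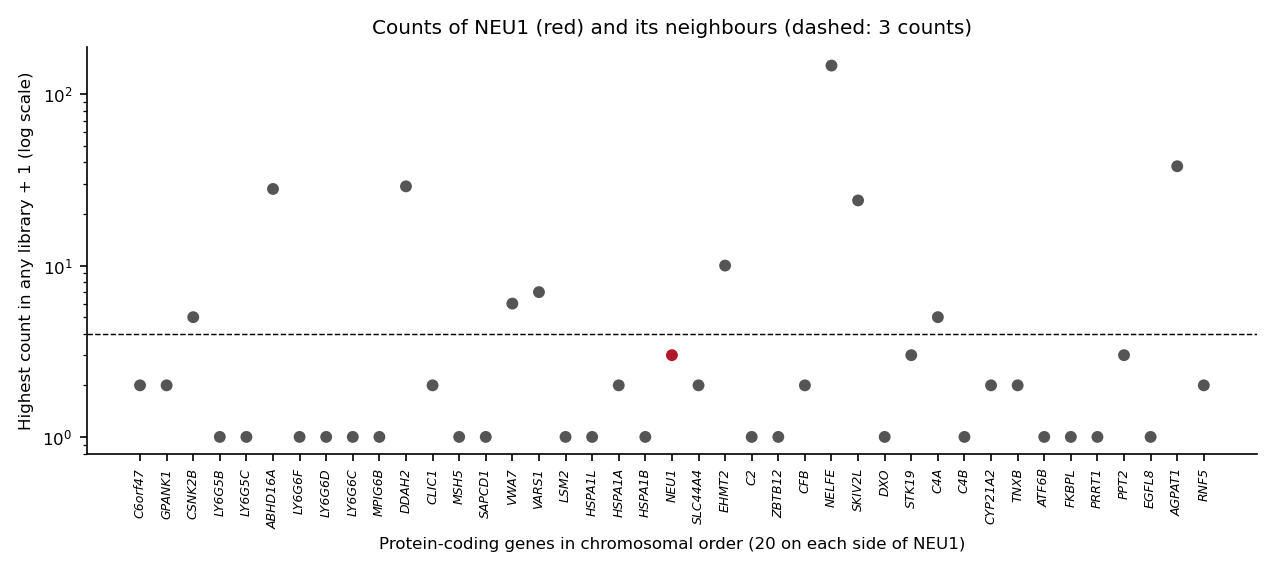
Highest count in any of the 14 libraries, plus 1 on a log axis, for NEU1 (red) and the 20 protein-coding genes on each side of it in chromosomal order. NEU1 reached 2 counts, and 30 of its 40 neighbours lie below the dashed line or on it, at 3 counts or fewer.

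Before the comparisons, the libraries held 12553094 to 19981453 counts on genes. All 8 luminal prostate markers checked (FOXA1, HOXB13, KLK2, KLK3, TMPRSS2, KRT8, KRT18 and EPCAM) had 10 or more counts in every library, with a summed level of 1704 to 1809 CPM in DMSO and 2093 to 2548 CPM in the treated libraries. The 3 endothelial markers reached at most 0.251 CPM in sum, the 5 leukocyte markers 5.52 to 8.56 CPM with CD3E at 0 throughout, and the 6 fibroblast markers 19.7 CPM in the lowest DMSO library and up to 33.4 CPM with Fucotrim II. Mitochondrially encoded genes took 5.98 to 7.03% of the counts in DMSO, 6.11 to 6.83% with P-SiaFNEtoc, 8.27 to 8.69% with SGN-2FF, 8.67 to 14.2% with Fucotrim I and 12.2 to 17.0% with Fucotrim II. The number of sialic acid genes called in each comparison with DMSO was the same when those genes were left out. These are bulk samples, in which fewer cells of a kind and less RNA per cell cannot be told apart.

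SIAE, which removes O-acetyl groups from sialic acid so that sialidases can act on it, had the largest sum of absolute log2 fold changes over the 4 comparisons with DMSO (1.80), just ahead of NEU3 (1.79). Its level in DMSO was 20.6, 21.4 and 20.4 CPM. With P-SiaFNEtoc it was 22.3, 21.2 and 22.4 CPM, and with SGN-2FF 23.8, 24.2 and 26.4 CPM. With Fucotrim I it was 31.3, 27.9 and 28.4 CPM, and with Fucotrim II 42.6 and 38.9 CPM. All libraries of the 3 fucosylation inhibitors lay above every DMSO library, whereas those of P-SiaFNEtoc overlapped with DMSO. SIAE rose by a log2 fold change of 0.96 with Fucotrim II (SE 0.08, 1.95-fold, adjusted p = 2.85e-05 by the edgeR quasi-likelihood test, adjusted over all genes tested by Benjamini-Hochberg). The rise was 0.49 with Fucotrim I (SE 0.08, edgeR adjusted p = 4.19e-05) and 0.26 with SGN-2FF (SE 0.07, edgeR adjusted p = 0.0112). The Fucotrim I call held whichever library was left out, and the Fucotrim II call without any 1 of the DMSO libraries. Leaving out 1 of the 2 Fucotrim II libraries leaves 1, so those fits are read for effect size only. The Fucotrim II log2 fold change was 0.90 to 1.02 whichever library was left out. The SGN-2FF call was lost without DMSO replicate 3 or SGN-2FF replicate 3, where the edgeR adjusted p was at most 0.0538, and with DESeq2 (adjusted p = 0.0508). For P-SiaFNEtoc the log2 fold change was 0.08, with a 95% interval from -0.06 to 0.23.

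SIAE lies on hg38 chromosome 11 from 124633113 to 124695707 (minus strand), and 42.4% of its exon bases are also exons of SPA17, TBRG1 or RNA5SP352 on the opposite strand. The libraries were made with a stranded kit, but the strand setting of the counting is not given in the sources used here. SPA17 fell with Fucotrim II by a log2 fold change of -0.31 (edgeR adjusted p = 0.0148), and TBRG1 had 0.04 there (edgeR adjusted p = 0.691). With Fucotrim I the same 2 genes had -0.01 and 0.04, neither of which passed the test. With SGN-2FF they had 0.02 and -0.06, which did not pass either. With P-SiaFNEtoc TBRG1 was at 67.3 to 70.1 CPM, below its 79.5 to 80.7 CPM in DMSO. SPA17 was at 21.4 to 23.5 CPM there, against 22.4 to 24.2 CPM in DMSO. The part of overlapping reads in the level of SIAE was not tested. Over all 14 libraries and 11836 genes whose mean count was 50 or more, the log2 CPM of SIAE was most like that of RPL26 (Pearson r = 0.979), RELN (0.978), PNPLA7 (0.977), SNHG8 (0.974) and CDK5RAP3 (0.973). This is a description over libraries that share 5 groups and carries no test.

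NEU3, a sialidase of the plasma membrane that acts on gangliosides, moved the other way. Its level in DMSO was 11.3, 12.8 and 12.3 CPM. It was 10.8, 9.83 and 9.45 CPM with P-SiaFNEtoc, and 12.1, 10.3 and 9.57 CPM with SGN-2FF. With Fucotrim I it was 9.03, 9.92 and 8.96 CPM, and with Fucotrim II 6.73 and 5.82 CPM. Except for SGN-2FF, whose first library lay within the range of DMSO, every treated library was below all 3 DMSO libraries. NEU3 fell with Fucotrim II by a log2 fold change of -0.96 (SE 0.13, 0.514 times the level in DMSO, edgeR adjusted p = 0.000277) and with Fucotrim I by -0.38 (SE 0.11, edgeR adjusted p = 0.00737). The Fucotrim I call held whichever library was left out, and the Fucotrim II call without any 1 of the DMSO libraries. The Fucotrim II log2 fold change was -1.07 to -0.86 whichever library was left out. The difference was -0.18 with SGN-2FF (95% interval -0.39 to 0.03) and did not pass the test. It was -0.27 with P-SiaFNEtoc (95% interval -0.47 to -0.07, edgeR adjusted p = 0.0607), and passed without DMSO replicate 1 (edgeR adjusted p = 0.0462) and without P-SiaFNEtoc replicate 1 (0.0491). NEU3 lies on hg38 chromosome 11 from 74988279 to 75018893 (plus strand) and shares no exon bases with another annotated gene.

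CMAS, the enzyme that makes CMP-sialic acid, was lower with all 3 fucosylation inhibitors, by small amounts. It stood at 149, 146 and 153 CPM in DMSO. With P-SiaFNEtoc it was 138, 143 and 140 CPM, and with SGN-2FF 134, 132 and 131 CPM. With Fucotrim I the 3 libraries lay close together at 135, 135 and 135 CPM, and with Fucotrim II at 118 and 121 CPM. No treated library reached the lowest DMSO library. The log2 fold changes were -0.32 with Fucotrim II (SE 0.06, edgeR adjusted p = 0.00187), -0.17 with SGN-2FF (SE 0.04, edgeR adjusted p = 0.00543) and -0.14 with Fucotrim I (SE 0.05, edgeR adjusted p = 0.0278). The SGN-2FF call held without any 1 library, and the Fucotrim II call without any 1 of the DMSO libraries. The Fucotrim II log2 fold change was -0.35 to -0.31 whichever library was left out. The Fucotrim I call was lost without DMSO replicate 1 or 3 or without Fucotrim I replicate 1 or 3, with an edgeR adjusted p of up to 0.132. For P-SiaFNEtoc the log2 fold change was -0.09 (SE 0.04, edgeR adjusted p = 0.161). CMAS lies on hg38 chromosome 12 from 22046218 to 22065674 (plus strand).

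SLC35A1, the Golgi transporter of CMP-sialic acid, stood at 33.3, 35.0 and 35.0 CPM in DMSO. With Fucotrim I its libraries spread over 25.2, 28.8 and 34.3 CPM and overlapped with DMSO. The log2 fold change was -0.23 (SE 0.09, edgeR adjusted p = 0.0396), a call that was lost without each of the 3 DMSO libraries and without Fucotrim I replicate 1 or 2, and with DESeq2 (adjusted p = 0.0803). Without Fucotrim I replicate 1 the log2 fold change was -0.13 (edgeR adjusted p = 0.234). With P-SiaFNEtoc its levels were 29.6, 30.6 and 31.7 CPM, all below DMSO, and the log2 fold change of -0.17 (95% interval -0.29 to -0.04, edgeR adjusted p = 0.0573) did not pass the test. The values were 32.6, 31.7 and 31.0 CPM with SGN-2FF and 34.7 and 29.96 CPM with Fucotrim II, neither of which passed. With Fucotrim II replicate 2 alone against DMSO, the log2 fold change was -0.21. SLC35A1 lies on hg38 chromosome 6 from 87470623 to 87512336 (plus strand). An overlapping gene on the same strand, ENSG00000213204, covers 55.5% of its exon bases, so the counting could have split or dropped its reads.

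Among the 3 enzymes of synthesis, 1 call was made in the 4 comparisons with DMSO, for NANS with Fucotrim II. GNE (hg38 chromosome 9 from 36214441 to 36277042, minus strand) had 8.68 to 9.50 CPM in DMSO and 7.05 to 9.92 CPM over the treated libraries, and no comparison with DMSO passed the test. Its P-SiaFNEtoc libraries, at 8.08, 7.88 and 7.05 CPM, lay below all DMSO libraries, with a log2 fold change of -0.22 (95% interval -0.45 to 0.00, edgeR adjusted p = 0.167). NANP (hg38 chromosome 20 from 25612935 to 25624014, minus strand) had 16.5 to 18.1 CPM in DMSO and 13.9 to 17.7 CPM in treated libraries. It passed in no comparison with DMSO. With Fucotrim II replicate 2 alone against DMSO, the log2 fold change of NANP was -0.29. NANS (hg38 chromosome 9 from 98056732 to 98083077, plus strand) stood at 65.2, 65.0 and 66.8 CPM in DMSO and at 72.8 and 75.6 CPM with Fucotrim II. That rise of 0.17 (SE 0.06, edgeR adjusted p = 0.0463) was no longer called without any 1 of the 3 DMSO libraries (edgeR adjusted p of up to 0.164). With Fucotrim II replicate 1 alone against DMSO, the log2 fold change was 0.14. TRIM14, which overlaps 8.56% of the exon bases of NANS on the opposite strand, had a log2 fold change of -0.25 with Fucotrim II (edgeR adjusted p = 0.0167).

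NPL, the lyase that splits free sialic acid into ManNAc and pyruvate, was the gene with the lowest level of the 9, at 42 to 59 counts per DMSO library. Its level was 3.08, 3.28 and 2.63 CPM in DMSO and 4.09, 4.52 and 4.44 CPM with Fucotrim I, and these ranges did not overlap. It rose with Fucotrim I by 0.53 (SE 0.17, edgeR adjusted p = 0.0165), a call lost without DMSO replicate 3 or Fucotrim I replicate 2 (edgeR adjusted p of up to 0.0774) and with DESeq2 (adjusted p = 0.0618). With SGN-2FF (4.24, 3.33 and 3.72 CPM) and P-SiaFNEtoc (3.70, 3.84 and 3.59 CPM) all libraries were also above DMSO, with log2 fold changes of 0.32 and 0.31 that did not pass. With Fucotrim II it had 3.01 and 2.66 CPM and a log2 fold change of -0.09 (95% interval -0.54 to 0.36). SLC17A5, the lysosomal exporter sialin, had 38.8 to 42.7 CPM in DMSO and 36.0 to 44.7 CPM in all treated libraries. Its log2 fold changes lay between -0.08 and 0.10, and none passed the test. NPL lies on hg38 chromosome 1 from 182789293 to 182830384 (plus strand) and SLC17A5 on chromosome 6 from 73593379 to 73653992 (minus strand).

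**Figure D3:**
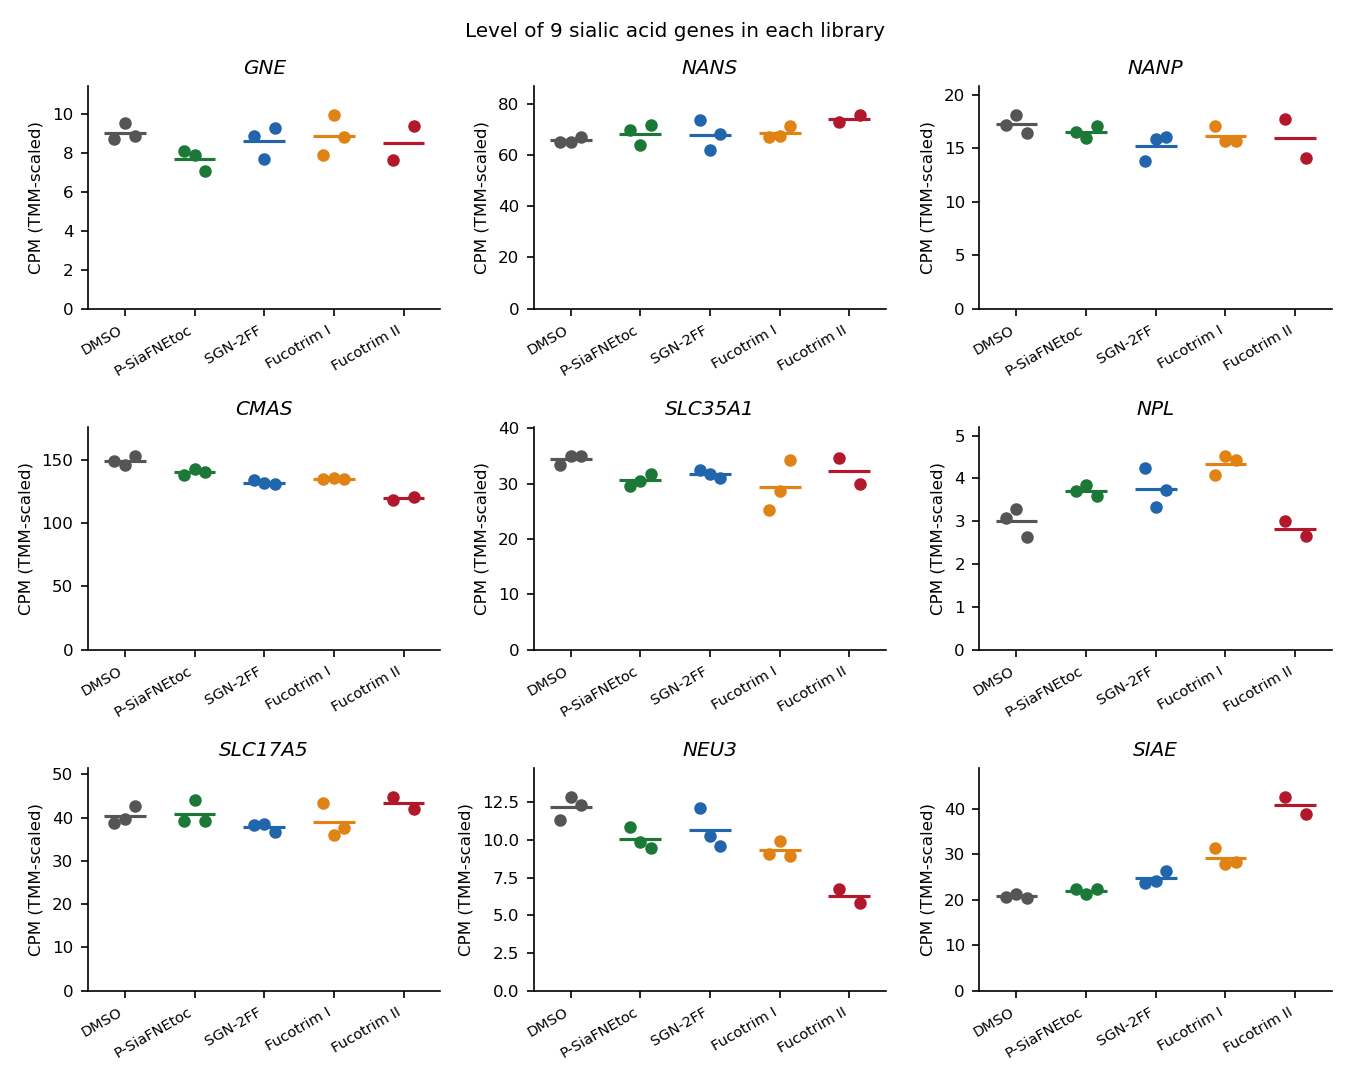
CPM after TMM scaling (axes start at 0) of the 9 measured sialic acid genes in each group, with 1 point per library and a line at the mean (n = 3, and n = 2 for Fucotrim II). SIAE reaches 42.6 CPM and NEU3 5.82 CPM in Fucotrim II libraries, against 20.4 to 21.4 and 11.3 to 12.8 CPM in DMSO.

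Counted over the pathway, 5 of the 9 measured genes were called with Fucotrim I (2 higher, 3 lower), where 43.8% of all genes tested were called, 21.6% higher and 22.1% lower. With Fucotrim II it was 4 of 9 (2 higher, 2 lower) against 51.4% of all genes (25.6% higher, 25.7% lower), and with SGN-2FF 2 of 9 (1 higher, 1 lower) against 20.6% (11.5% higher, 9.08% lower). With P-SiaFNEtoc edgeR's quasi-likelihood test called 0 of 9, against 16.3% of all genes (9.02% higher, 7.33% lower), limma-voom and DESeq2 also called 0, and 3 genes (CMAS, NEU3 and SLC35A1) had an unadjusted p under 0.05, as did 30.1% of all genes. For Fucotrim I, DESeq2 called 3 of the 9 genes and limma-voom 5. For Fucotrim II these tools called 3 and 4, and for SGN-2FF they called 1 and 2. Ranges of the libraries did not overlap with DMSO for 5 of the 9 genes with Fucotrim I (52.6% of all genes), 4 with Fucotrim II (67.7%), 5 with SGN-2FF (36.0%) and 5 with P-SiaFNEtoc (33.7%). The median log2 fold change of the 9 genes was -0.04, -0.09, -0.08 and -0.06 in the same order, and 0.00, 0.01, 0.00 and 0.00 over all genes.

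**Figure D4:**
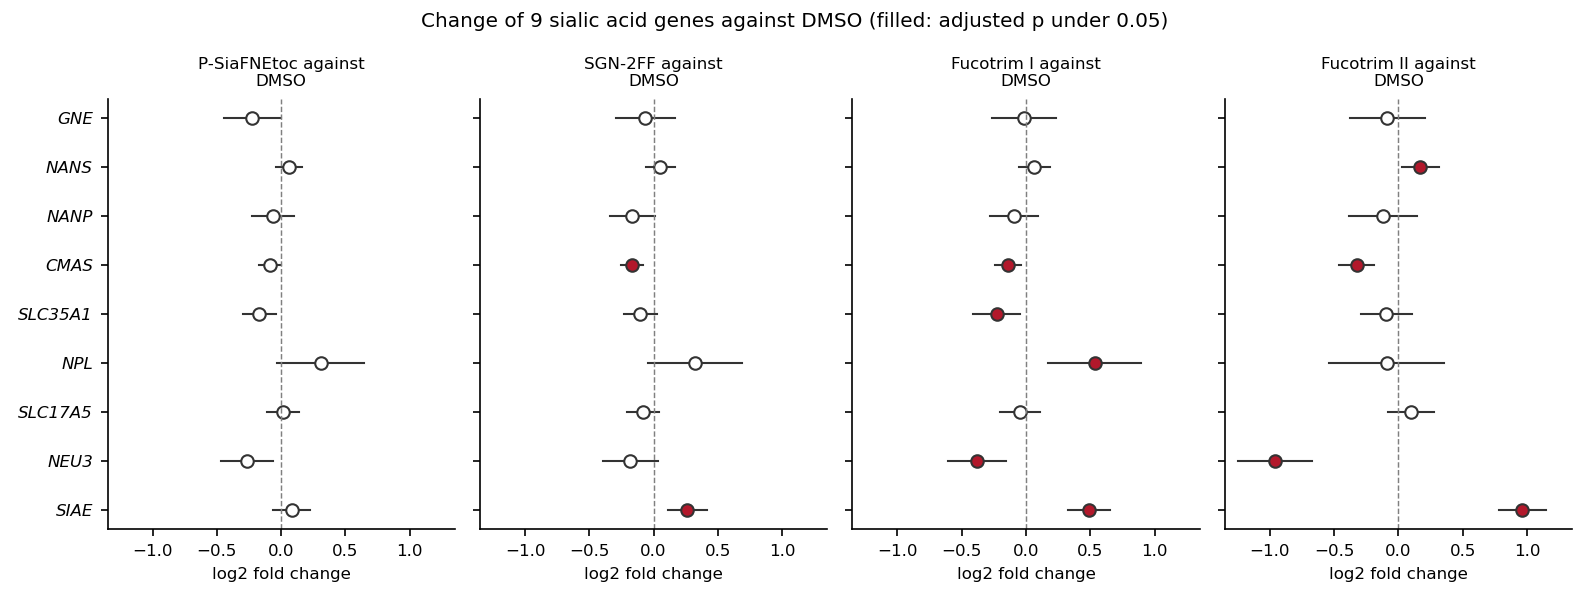
Log2 fold change against DMSO of the 9 measured sialic acid genes, 1 panel per inhibitor, with 95% intervals and filled points at an adjusted p under 0.05 (edgeR). SIAE lies at 0.96 and NEU3 at -0.96 with Fucotrim II, and no point is filled with P-SiaFNEtoc.

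Whether the sialylation inhibitor left the pathway at another level than the fucosylation inhibitors was tested directly, without the DMSO libraries and at the doses used. Against Fucotrim II, 3 of 9 genes differed (43.7% of all genes tested did, 21.6% higher and 22.1% lower). SIAE was lower with P-SiaFNEtoc (log2 fold change -0.89, SE 0.08, edgeR adjusted p = 3.63e-05), while NEU3 was higher (0.68, SE 0.14, edgeR adjusted p = 0.00272) and CMAS was higher (0.23, SE 0.06, edgeR adjusted p = 0.0121). The CMAS call was lost without P-SiaFNEtoc replicate 1 or 2, where the edgeR adjusted p was at most 0.0806. Against Fucotrim I, 1 of 9 differed (34.6% of all genes did, 17.1% higher and 17.5% lower), namely SIAE, lower with P-SiaFNEtoc (log2 fold change -0.41, SE 0.08, edgeR adjusted p = 0.000128). NEU3 did not pass there, with a difference of 0.11 and a 95% interval from -0.13 to 0.35. Against SGN-2FF, edgeR's test called 0 of 9 (13.0% of all genes, 5.95% higher and 7.0% lower), as did limma-voom and DESeq2, and only SIAE had an unadjusted p under 0.05 (log2 fold change -0.18, 95% interval -0.33 to -0.03, edgeR adjusted p = 0.111). The other 6 measured genes had differences between -0.23 and 0.06 against Fucotrim I, between -0.15 and 0.39 against Fucotrim II and between -0.16 and 0.10 against SGN-2FF, none of them called. CMAS was not called against Fucotrim I or SGN-2FF either, nor was NEU3 against SGN-2FF. All 9 genes together lay between -0.41 and 0.11 against Fucotrim I and between -0.18 and 0.10 against SGN-2FF. Ranges of the libraries were apart for 3 of the 9 genes against Fucotrim I (44.5% of all genes), 5 against Fucotrim II (62.8%) and 3 against SGN-2FF (28.6%).

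**Figure D5:**
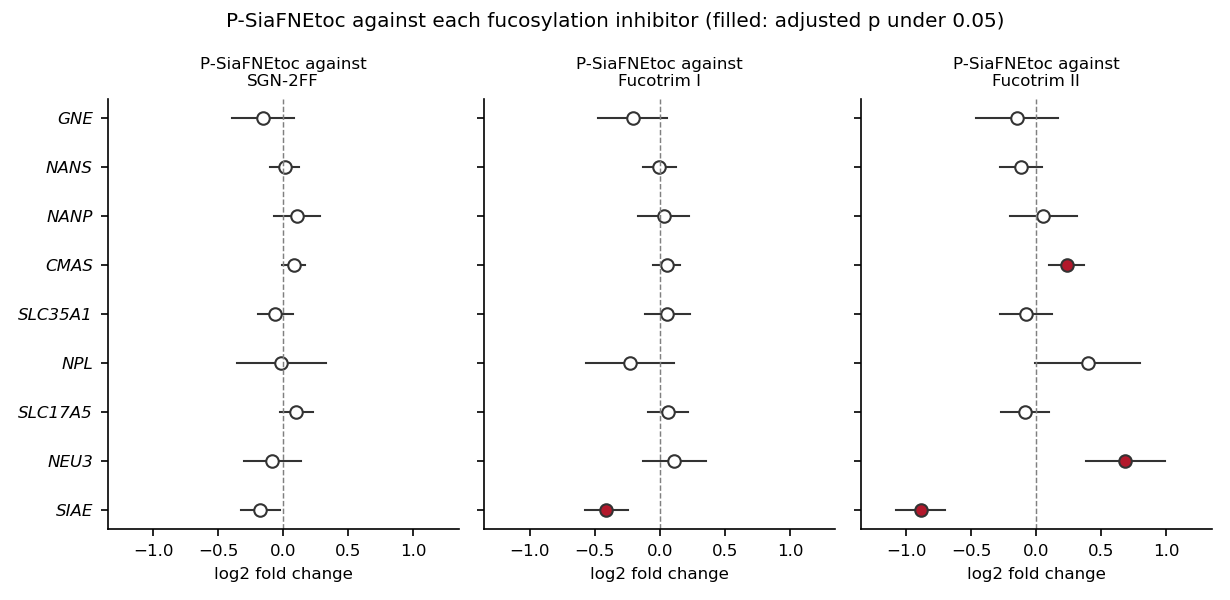
Log2 fold change of P-SiaFNEtoc against each fucosylation inhibitor for the 9 measured sialic acid genes, with 95% intervals and filled points at an adjusted p under 0.05 (edgeR). SIAE lies at -0.89 against Fucotrim II and -0.41 against Fucotrim I, and no point is filled against SGN-2FF.

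Genes that supply the amino sugar precursors were counted as a list of 11, all of which were tested. With Fucotrim I 4 were called (2 higher, 2 lower), beside 43.8% of all genes (21.6% higher, 22.1% lower). With Fucotrim II it was 5 (3 and 2) beside 51.4% (25.6% and 25.7%). With SGN-2FF it was 5 (4 and 1) beside 20.6% (11.5% and 9.08%), and with P-SiaFNEtoc 3 (2 and 1) beside 16.3% (9.02% and 7.33%). The median log2 fold change of the list was 0.06, 0.09, 0.06 and 0.02 in that order, and 0.00, 0.01, 0.00 and 0.00 over all genes. RENBP, which interconverts ManNAc and GlcNAc, rose with every inhibitor from a DMSO level of 6.08 ± 0.353 CPM (SD, n = 3). Its log2 fold changes were 1.29 with Fucotrim II, 0.82 with Fucotrim I, 0.61 with P-SiaFNEtoc and 0.40 with SGN-2FF, where the call was lost without DMSO replicate 3 or SGN-2FF replicate 1 (edgeR adjusted p of up to 0.109). UAP1L1, a relative of the enzyme that makes UDP-GlcNAc, rose by 0.84 with Fucotrim II, by 0.59 with Fucotrim I and by 0.23 with SGN-2FF, where the call was lost without DMSO replicate 1 or SGN-2FF replicate 2 (edgeR adjusted p of up to 0.0557). UAP1, that enzyme itself, rose by 0.23 with SGN-2FF and by 0.19 with P-SiaFNEtoc. GFPT1, the first enzyme of the hexosamine pathway, had log2 fold changes of -0.26 with Fucotrim I and -0.16 with SGN-2FF, both called, the second not without SGN-2FF replicate 1 or 2 (edgeR adjusted p of up to 0.0978). AMDHD2, a deacetylase of phosphorylated GlcNAc, rose by 0.49 with Fucotrim II and by 0.23 with SGN-2FF, where the call was lost without any 1 of the DMSO libraries or SGN-2FF replicate 1 or 2 (edgeR adjusted p of up to 0.294). GFPT2, a second form of GFPT1, fell by 0.85 on the log2 scale with P-SiaFNEtoc (edgeR adjusted p = 0.0358), a call lost without DMSO replicate 2 or 3 or P-SiaFNEtoc replicate 2 or 3 (up to 0.131). With DESeq2 this call and the SGN-2FF calls of RENBP and AMDHD2 were lost as well. The SGN-2FF call of AMDHD2 was also lost with limma-voom. RENBP was lower with P-SiaFNEtoc than with Fucotrim II when tested directly (log2 fold change -0.69, edgeR adjusted p = 0.00259). It did not pass directly against Fucotrim I (-0.21, edgeR adjusted p = 0.186) or SGN-2FF (0.21, edgeR adjusted p = 0.267). In these direct tests 3 of the 11 genes were called against Fucotrim I (34.6% of all genes), 4 against Fucotrim II (43.7%) and 1 against SGN-2FF (13.0%).

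Of 7 partner enzymes 4 were tested, and NEU2, NEU4 and CMAHP were below the filter. CASD1, which adds the O-acetyl groups that SIAE removes, had a log2 fold change of 0.36 with Fucotrim I (edgeR adjusted p = 0.0189), the 1 call there beside 43.8% of all genes, and it was lost without DMSO replicate 1 or 3 or Fucotrim I replicate 2 (edgeR adjusted p of up to 0.109). With Fucotrim II 3 were called, all higher, beside 51.4% of all genes called and 25.6% higher. They were GALNS (0.51), a lysosomal sulfatase, CTSA (0.32), the protective protein of the complex with NEU1, and GLB1 (0.26), the lysosomal beta-galactosidase, whose call was lost without DMSO replicate 1 or 2 (edgeR adjusted p of up to 0.0633). The log2 fold changes of the 4 lay between -0.21 and 0.13 with SGN-2FF and between 0.02 and 0.09 with P-SiaFNEtoc, and did not pass edgeR's test. The median of the 4 was 0.15 with Fucotrim I and 0.29 with Fucotrim II.

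Of 20 sialyltransferases, the enzymes that spend CMP-sialic acid, 13 were tested against DMSO. With Fucotrim I 7 were higher and 2 lower, beside 43.8% of all genes called (21.6% higher, 22.1% lower). With Fucotrim II it was 5 and 3 beside 51.4% (25.6% and 25.7%). With SGN-2FF it was 1 and 3 beside 20.6% (11.5% and 9.08%), and with P-SiaFNEtoc 3 and 1 beside 16.3% (9.02% and 7.33%). ST6GAL1 makes the α2,6 linkage on N-glycans. It rose by 0.82 with Fucotrim II, by 0.70 with P-SiaFNEtoc, by 0.65 with SGN-2FF and by 0.31 with Fucotrim I. These calls held whichever library was left out, and for Fucotrim II whichever DMSO library was. ST8SIA1, which makes the ganglioside GD3, was near the limit of detection, at 0.660 to 0.944 CPM in DMSO, 0 to 0.358 CPM with Fucotrim I and 0.170 to 0.240 CPM with Fucotrim II. It was called lower with both, and with Fucotrim I the edgeR adjusted p was 0.0517 without Fucotrim I replicate 3. ST3GAL5, which makes GM3, rose by 0.56 with Fucotrim I and by 0.51 with Fucotrim II. ST3GAL3 was called lower with P-SiaFNEtoc (log2 fold change -0.54), Fucotrim II (-0.39) and SGN-2FF (-0.36). The Fucotrim II call was lost without DMSO replicate 3, and the SGN-2FF call without DMSO replicate 3 or SGN-2FF replicate 1 or 2 (edgeR adjusted p of up to 0.138). ST6GALNAC5 rose by 0.64 with P-SiaFNEtoc. ST3GAL2 rose by 0.79 with Fucotrim II and by 0.61 with Fucotrim I. Its Fucotrim I call was lost without DMSO replicate 3 or Fucotrim I replicate 3. ST6GALNAC2 was called lower with SGN-2FF (log2 fold change -0.54), but not without DMSO replicate 1 or 2 or SGN-2FF replicate 1 or 3. ST3GAL4 was called higher with Fucotrim II (0.57), Fucotrim I (0.33) and P-SiaFNEtoc (0.26). Its calls with Fucotrim I and P-SiaFNEtoc were lost without DMSO replicate 2 and without other single libraries. ST3GAL1, at 303 CPM in DMSO, was called lower with Fucotrim I (log2 fold change -0.33), SGN-2FF (-0.25) and Fucotrim II (-0.17). The Fucotrim I and SGN-2FF calls held whichever library was left out, and the Fucotrim II call was lost without any 1 of the DMSO libraries. With P-SiaFNEtoc its log2 fold change was 0.05 (edgeR adjusted p = 0.421). The list's median log2 fold change was 0.27 with Fucotrim I, 0.35 with Fucotrim II, 0.09 with SGN-2FF and 0.09 with P-SiaFNEtoc, against 0.00, 0.01, 0.00 and 0.00 over all genes.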

How the data were processed

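RNA-seq of 14 libraries of CWR22Rv1 cells was analysed. The authors prepared stranded mRNA libraries, trimmed the reads (Cutadapt), aligned them to hg38 (HISAT2) and assigned them to genes (featureCounts). The deposited values are whole-number counts without normalization, in 1 table per inhibitor that repeats the DMSO libraries. The DMSO counts differed between tables for 0 of 27819 shared genes. The annotation, the strand setting and the handling of reads with several positions are not given in the sources used here. The study states 3 biological repeats for each condition. The samples available here hold 2 Fucotrim II libraries, and both were analysed.

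The edgeR function filterByExpr removed low genes, with minimum settings of 10 counts and of 15 in total, both of which had to be met. The rest were scaled by TMM and tested for each pair of groups alone. This used the robust quasi-likelihood test of edgeR 4.0.16 in R 4.3.3, with Benjamini-Hochberg adjustment over all genes tested and a threshold of 0.05. Standard errors came from the fold change and the F statistic, and intervals from the total degrees of freedom of that test. CPM values use 1 TMM scaling of all 14 libraries. The test was checked on simulated counts. Alternatives were DESeq2 1.42.0, limma-voom (limma 3.58.1), other scaling, filters and thresholds, a replicate block, 1 fit of all libraries and each library left out. Leaving out 1 of the 2 Fucotrim II libraries left 1, so those fits are read for effect size only. Positions come from GENCODE on hg38 and promoters from RefSeq GRCh38.p14. Protein motifs were not analysed here.

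By rule the text covers the 10 genes and, from the other lists, at most the 3 genes with the largest change among those called in a comparison. Calls of those genes in other comparisons with DMSO were added after their values were seen. Of the direct tests on these lists, only those of RENBP are given gene by gene. The members and lists were chosen with earlier results of these data known. SPA17, TBRG1 and TRIM14 were named because they overlap members, and CSNK2B, CLIC1, LSM2 and VARS1 were chosen after their values were seen. Some cell type markers are not reported here.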

Additional observations from a re-analysis of the deposited data

How the results depend on the processing

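Over the 9 measured genes and 7 comparisons, 945 alternative results were set beside the main ones, including fits with 1 Fucotrim II library. Of these, 907 stayed on their side of the threshold, 33 lost the call and 5 gained a call. Where a gene was called in either fit, 0 changed direction. For genes called in neither, a change of direction was not counted. The threshold of 0.01 reused the main fold changes. With Fucotrim I the number of genes called was 5, and it was 3 with DESeq2, 2 at an adjusted p under 0.01, and 2 to 4 with each library left out. With SGN-2FF it was 2, against 1 with DESeq2, 1 at 0.01 and 1 to 2 with each library left out. With P-SiaFNEtoc it was 0, and 0 to 1 with each library left out. The Fucotrim II libraries are numbered 1 and 2 in the titles but 2 and 3 in the library names. Libraries with the same number had correlations of their deviations between -0.24 and 0.13 by the titles and between -0.13 and 0.20 by the library names. Those with different numbers had -0.15 to 0.24 by the titles and -0.24 to 0.24 by the library names. For DMSO with Fucotrim I the correlations were 0.13, 0.11 and 0.02 at the same number and -0.15 to 0.05 otherwise. Neither numbering was taken to pair the samples. A replicate block by the titles' numbers left 2 genes instead of 4 called with Fucotrim II, where CMAS had an edgeR adjusted p of 0.0692 and NANS 0.313. With the numbers of the library names as the block, 3 genes were called (CMAS, NEU3 and SIAE, with NANS at an edgeR adjusted p of 0.0970), and over all genes 7779 against 5300 with the titles' block and 7511 without a block. The titles' block gave 1 call instead of 0 with P-SiaFNEtoc (NEU3, edgeR adjusted p = 0.0490) and the same 5 genes with Fucotrim I. Over all genes it called 7288 with Fucotrim I (6209 without a block), 2674 with P-SiaFNEtoc (2331) and 2868 with SGN-2FF (2946). The Fucotrim II calls of CTSA, GLB1, ST3GAL3 and ST3GAL1 were also lost with the block of the titles' numbers. With DESeq2 those of ST3GAL3 and ST3GAL1 were lost too. DESeq2 also lost the SGN-2FF calls of ST3GAL3 and ST6GALNAC2 and the P-SiaFNEtoc call of ST3GAL4. The Fucotrim II call of ST3GAL1 was lost as well with the block of the library names' numbers.

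Over all genes, 2946 were called with SGN-2FF, 2331 with P-SiaFNEtoc and 1848 directly between them. DESeq2 called 1949, 1463 and 1154, a single fit of the 14 libraries 1695, 998 and 504, and an adjusted p under 0.01 left 1609, 1171 and 986. Without SGN-2FF replicate 2 the first and the last were 1642 and 1046, and without P-SiaFNEtoc replicate 2 the second and the last were 1516 and 1199. For Fucotrim II directly against P-SiaFNEtoc the 6422 calls fell to 4016 at 0.01. With the length of the longest transcript in place of all exons, NANS (21.7 CPM per kilobase) stood above SLC35A1 (18.6). NPL had 42 to 77 counts per library, NEU1 at most 2, and Fucotrim II 2 libraries, which limits what could be detected there.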
